A study of Mus musculus with 12 samples.

Results

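The cytokine, chemokine and receptor genes of sorted mouse blood stem and progenitor cells were described across 4 groups of 3 arrays each. Members were the genes whose symbols begin with the standard stems of chemokines and their receptors, interleukins and their receptors, the TNF, TGF-beta, BMP, activin, LIF and oncostatin M families, and the SOCS inhibitors. The rule left out Cxcl12, Il12a and Il6ra, and it found 86 members among 9984 genes with a value. No colony-stimulating factor or colony-stimulating factor receptor was among them. Other well-known genes were also absent, among them Cxcr4, Il7r, Il2rg, Il6st, Tgfb1, Tgfbr1, Tnfrsf1a and Tnfrsf1b. All those genes are therefore not analysed here. A name chosen by its stem does not always fit the function, and 3 members have another role: Bmp1, a protease of matrix assembly, the kinase gene Bmp2k, and the focal adhesion gene Tgfb1i1.

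RNA came from c-Kit-enriched bone marrow of male C57Bl/6 mice with altered Erg, which encodes an ETS transcription factor needed by blood stem cells, and each extract was amplified before hybridisation. For all 4 groups the labels give at least 6 generations of backcrossing. Erg -/- multipotent progenitors (MPPs) carried Erg fl/fl and Mx1-Cre, which removes the floxed exon 11 encoding part of the DNA-binding domain, and their controls were Erg fl/fl MPPs without Mx1-Cre. Mice of both MPP groups were injected 5 times with pIpC, an RNA mimic that triggers interferon and thereby Mx1-Cre, and their cells were taken 2 weeks after the first injection. Erg +/- hematopoietic stem cells (HSCs) came from a cross with a general Cre deleter, and their controls were Erg +/+ HSCs. No pIpC is named for the HSC groups, so population and pIpC treatment cannot be told apart wherever MPPs are set against HSCs. Mx1-Cre acts in any cell that responds to interferon, and deletion in the general deleter cross is not limited to blood cells. The HSC gate was Lineage-, Sca-1+, c-kit+, CD150+, CD48-. The MPP labels disagree, with CD150- cells in the sorting field and the HSC gate in the source field, and titles call the Erg +/- samples knock-outs although the genotype field gives Erg +/-. The labels give no age and do not say whether each sample of a group is a different animal. The p-values therefore cover only how these samples vary, which may be technical.

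Values are log2 expression values from RMA, a method that corrects background, equalises the distribution of the arrays and summarises the probes of a probe set. A difference of 1 is a doubling, differences of dim genes are compressed, and levels of different genes cannot be set against each other. Array medians lay between 5.41 and 5.54, and any 2 arrays of the same group had r = 0.9528 to 0.9743 across genes. Of 5 markers associated with stem cells, 4 were called lower in both comparisons of MPPs with HSCs, with the list mean at 6.3 to 6.51 in Erg -/- MPPs and 6.85 to 6.87 in Erg fl/fl MPPs, against 9.17 to 9.4 in Erg +/- HSCs and 8.95 to 9.08 in Erg +/+ HSCs. Erg itself, the targeted gene, is not analysed here, and the genotypes were not checked on it.

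Cytokines are secreted or membrane-bound signals that tell blood stem and progenitor cells to rest, divide or choose a lineage. Many interleukin receptors, though not all, pass the signal through JAK kinases and STAT factors, which SOCS proteins switch off. Those of the IL-1 family act through MyD88 adaptors to NF-kappaB. TNF-family receptors also reach NF-kappaB, TGF-beta and BMP receptors act through SMAD factors, and chemokine receptors are coupled to G proteins and steer cell movement. In marrow, TGF-beta is known for holding stem cells in quiescence, and IL-1 and TNF for pushing them towards myeloid output under inflammation.

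By the test used throughout (limma over all genes, Benjamini-Hochberg adjusted p under 0.05), 1 member passed in 1 of 5 comparisons. Ccl9 rose in Erg fl/fl MPPs relative to Erg +/+ HSCs. No member passed for loss of Erg in MPPs, for loss of 1 Erg allele in HSCs, for the difference between those effects, or between Erg -/- MPPs and Erg +/- HSCs. In all genes the share called was 0.0801% in MPPs, 0.02% in HSCs, 0.02% for the difference of the effects, 1.28% between the control populations and 0.12% between the Erg-reduced populations. The members' counts of 0 and 1 of 86 lie near these shares.

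**Figure D1:**
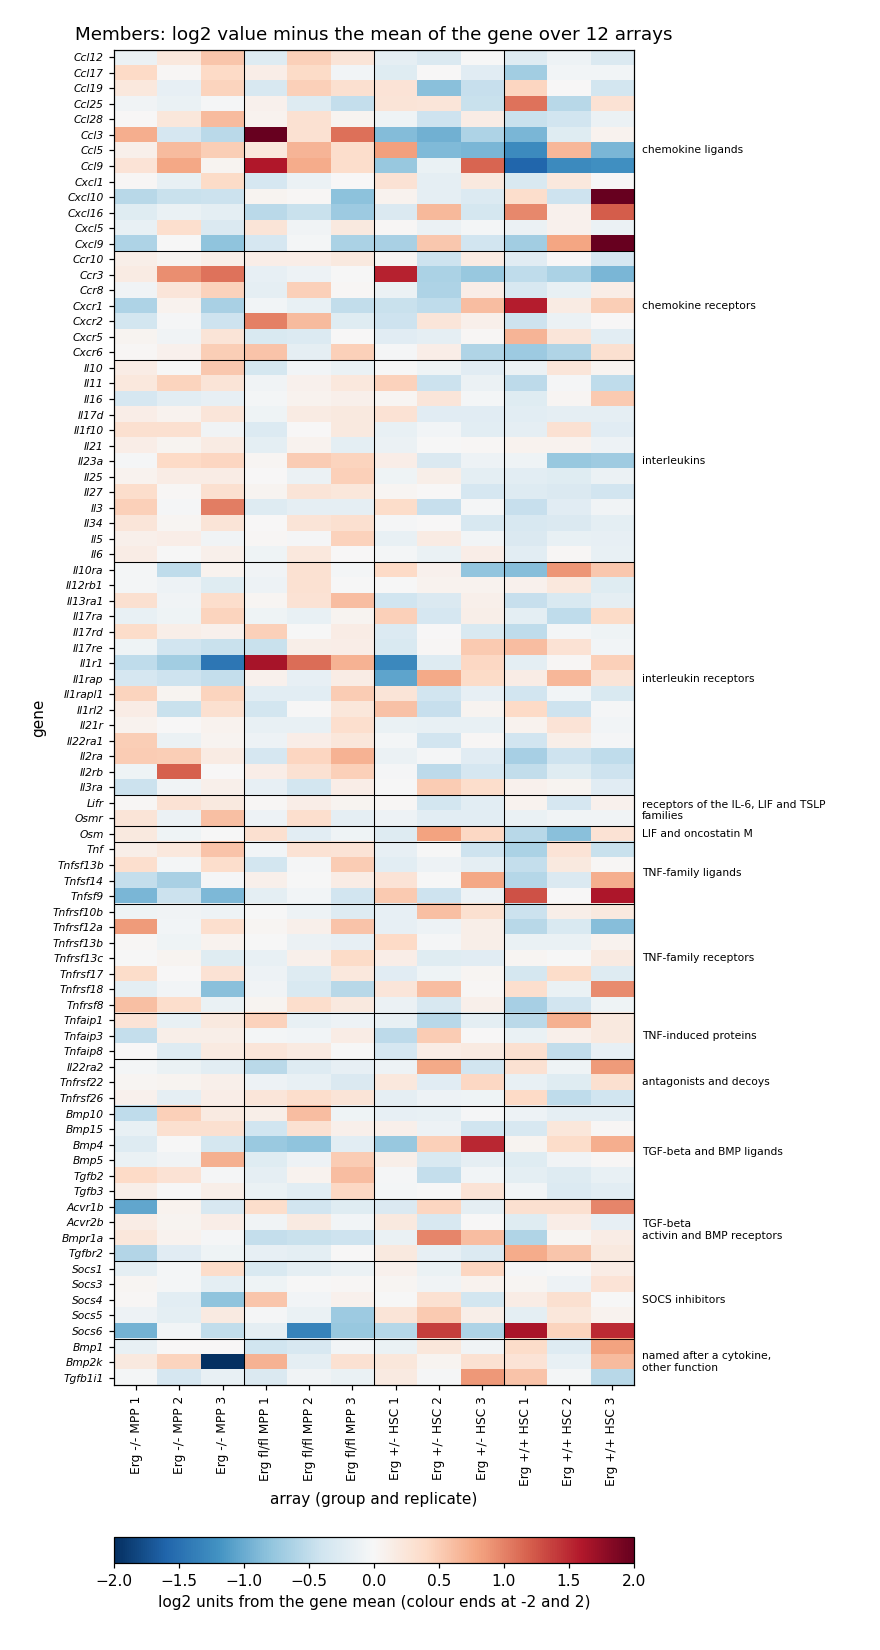
Log2 value of each of the 86 members on each of 12 arrays, minus the mean of that gene over all arrays, with genes in rows by role and arrays in columns by group; red is above and blue below the gene's mean. Ccl9 and Ccl3 are red in Erg fl/fl MPPs, Il1r1 is blue in Erg -/- MPPs, and single arrays such as Erg +/+ HSC replicate 3 for Cxcl9 and Cxcl10 stand out.

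The chemokine ligands, which attract and position leukocytes, held the member that was called. Ccl9, a CC chemokine of mouse myeloid cells that acts through CCR1, had values of 6.37, 6.88 and 6.16 in Erg -/- MPPs. It had 7.71, 6.84 and 6.45 in Erg fl/fl MPPs, 5.35, 5.97 and 7.26 in Erg +/- HSCs, and 4.52, 4.82 and 4.88 in Erg +/+ HSCs. Every Erg +/+ HSC array lay below every array of the other groups. Ccl9 was 4.79-fold higher in Erg fl/fl MPPs than in Erg +/+ HSCs, at 7.0 ± 0.644 against 4.74 ± 0.198 (SD, n = 3 each), a log2 difference of 2.26 (SE 0.427, adjusted p = 0.0274 by limma). The call was lost with p-values adjusted over all deposited probe sets (adjusted p = 0.0991 by limma) and without any 1 of 4 arrays: Erg +/+ replicate 1 (0.0691) or 3 (0.0522), and Erg fl/fl replicate 1 (0.0589) or 2 (0.077).

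In Erg +/- HSCs, Ccl9 averaged 6.19 ± 0.971, against 4.74 ± 0.198 in Erg +/+ HSCs (SD, n = 3 each), a log2 difference of 1.45 with all 3 arrays above the controls, which did not pass (unadjusted p = 0.00504, adjusted p = 0.559 by limma). Its difference between Erg -/- and Erg fl/fl MPPs was -0.53 (adjusted p = 0.998 by limma), and the MPP difference minus the HSC difference was -1.98 (SE 0.604, unadjusted p = 0.00626, adjusted p = 0.971). Erg -/- MPPs and Erg +/- HSCs differed by 0.27 (SE 0.427). The HSC comparison and the comparison of the controls share the Erg +/+ arrays, on which Ccl9 was lowest. Of 7 granulocyte and monocyte markers, 1 was called higher in Erg fl/fl MPPs than in Erg +/+ HSCs, Irf8, a monocyte and dendritic cell factor (log2 difference 1.05, adjusted p = 0.0364 by limma), and the list mean was 5.55 to 5.73 against 5.52 to 5.92. Of 5 macrophage markers 0 were called, with a list mean of 5.87 to 6.25 in Erg fl/fl MPPs and 6.2 to 6.51 in Erg +/+ HSCs. Other lists differed more in this comparison. Of 5 mast cell, basophil and eosinophil markers 1 was called higher in Erg fl/fl MPPs, the basophil protease gene Mcpt8 (4.13, adjusted p = 0.000242 by limma), with a list mean of 5.57 to 6.28 against 4.23 to 5.47. Of 6 B-lineage markers 3 were called higher, Igll1, Vpreb1 and Ebf1 (2.39, 3.00 and 1.49), with a list mean of 6.5 to 7.0 against 4.91 to 5.52. Of 4 dendritic cell markers 2 were called higher, the receptor gene Flt3 (2.57) and again Irf8. The mean of that list was 6.46 to 6.69 against 5.39 to 5.71. Of 7 endothelial and stromal markers 1 was called lower, the matrix gene Sparc (-1.40), with a list mean of 5.67 to 5.8 against 6.02 to 6.18. The part of other cell types in the Ccl9 result was not tested, and in bulk samples more cells of a type and more RNA per cell cannot be told apart.

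Ccl3, which encodes MIP-1 alpha, a chemokine known to restrain the division of progenitors, had values of 6.37, 5.30 and 5.10 in Erg -/- MPPs and 7.92, 5.95 and 6.75 in Erg fl/fl MPPs. In HSCs it had 4.77, 4.68 and 5.03 with Erg +/- and 4.73, 5.40 and 5.71 with Erg +/+. All MPP arrays of each kind lay above the HSC arrays they were compared with, and the MPP genotypes overlapped. The log2 difference was 1.59 between Erg fl/fl MPPs and Erg +/+ HSCs (SE 0.451, adjusted p = 0.0979 by limma) and -1.28 between Erg -/- and Erg fl/fl MPPs (unadjusted p = 0.0145, adjusted p = 0.977). Cxcl16, a membrane-anchored ligand of Cxcr6, ran the other way. It had 5.09, 5.21 and 5.14 in Erg -/- MPPs, 4.80, 4.89 and 4.61 in Erg fl/fl MPPs, 5.05, 5.99 and 4.99 in Erg +/- HSCs, and 6.30, 5.43 and 6.54 in Erg +/+ HSCs. Its difference between Erg fl/fl MPPs and Erg +/+ HSCs was -1.32 (SE 0.301) with adjusted p = 0.0536 by limma, just outside the threshold. With all arrays kept, 4 planned settings brought it inside (adjusted p = 0.0286 to 0.0473 by limma). With 1 array left out its adjusted p ran from 0.0157 to 0.153. Cxcl16 was 1.68-fold lower in Erg +/- than in Erg +/+ HSCs (unadjusted p = 0.0283, adjusted p = 0.781 by limma), and its log2 difference in MPPs was 0.38.

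**Figure D2:**
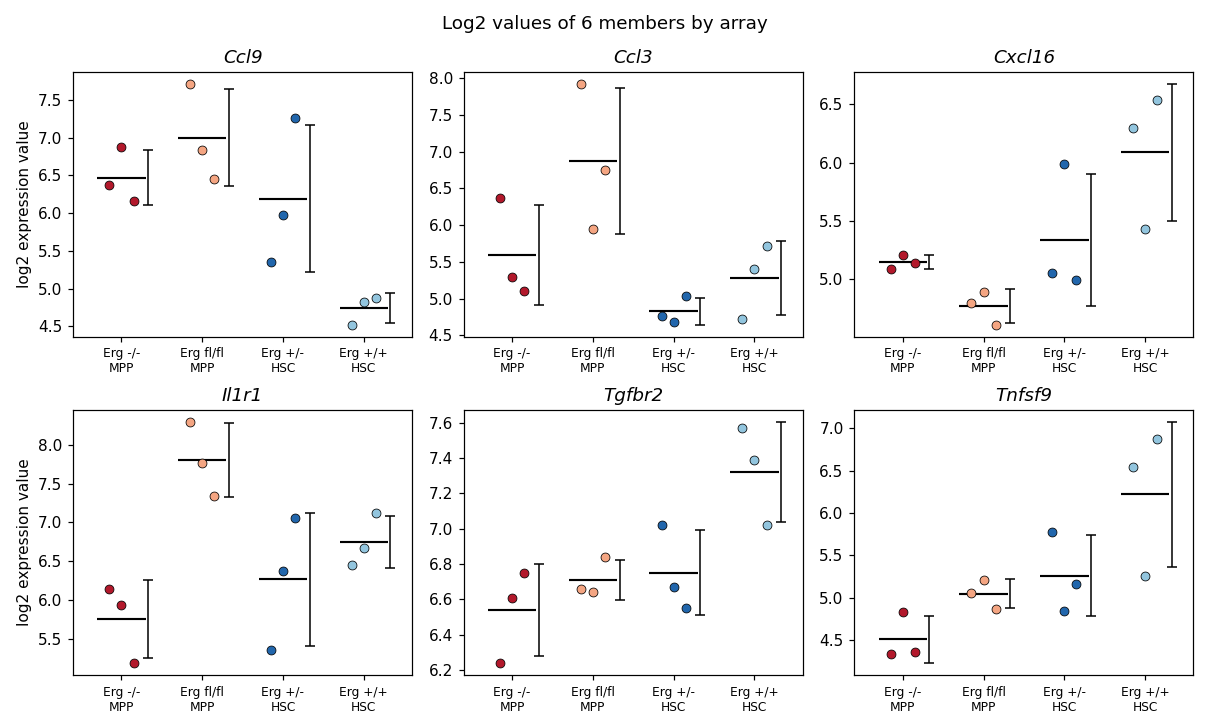
Log2 values of 6 members on each array (points), with the group mean (line) and SD (bar, n = 3), for Erg -/- MPPs, Erg fl/fl MPPs, Erg +/- HSCs and Erg +/+ HSCs from left to right; each panel has its own vertical axis, which does not start at 0. Ccl9 is lowest in Erg +/+ HSCs at 4.52 to 4.88, and Il1r1 lies at 5.19 to 6.14 in Erg -/- MPPs and at 7.34 to 8.29 in Erg fl/fl MPPs.

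The start regions of Ccl9, which had the smallest p of the members between the controls, and of Il1r1 and Ccl3, which had the smallest and next smallest between the MPP genotypes, are shown because Erg, like other ETS factors, binds DNA around a GGAA core. Each runs from 250 bases before to 50 after a RefSeq gene start in assembly GRCm38.p6, 5′ to 3′ on the strand of the gene, and capitals mark GGAA or, for the core on the opposite strand, TTCC. Ccl9 lies at chr11:83578587-83578886 and Ccl3 at chr11:83649329-83649628, both on the minus strand. The table gives Il1r1 a pair of starts on the plus strand, at chr1:40224830-40225129 and chr1:40266336-40266635.
Ccl9: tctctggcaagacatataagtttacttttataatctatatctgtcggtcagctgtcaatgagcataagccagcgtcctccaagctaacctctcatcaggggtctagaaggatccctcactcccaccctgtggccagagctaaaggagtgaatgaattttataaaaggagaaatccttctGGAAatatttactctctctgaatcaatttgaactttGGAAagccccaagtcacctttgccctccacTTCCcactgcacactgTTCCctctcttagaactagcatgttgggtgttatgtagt
Ccl3: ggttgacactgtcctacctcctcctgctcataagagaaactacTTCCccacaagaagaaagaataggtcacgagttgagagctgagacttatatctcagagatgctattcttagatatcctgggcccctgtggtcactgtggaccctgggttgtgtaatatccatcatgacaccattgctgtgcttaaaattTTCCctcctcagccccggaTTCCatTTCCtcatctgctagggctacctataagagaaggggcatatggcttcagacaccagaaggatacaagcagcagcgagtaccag
Il1r1, start 1: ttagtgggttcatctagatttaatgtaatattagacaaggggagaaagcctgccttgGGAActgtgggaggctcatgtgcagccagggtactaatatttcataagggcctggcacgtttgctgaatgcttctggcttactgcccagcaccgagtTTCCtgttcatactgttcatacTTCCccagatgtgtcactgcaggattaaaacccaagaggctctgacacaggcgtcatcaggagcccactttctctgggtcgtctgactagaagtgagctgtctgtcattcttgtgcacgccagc
Il1r1, start 2: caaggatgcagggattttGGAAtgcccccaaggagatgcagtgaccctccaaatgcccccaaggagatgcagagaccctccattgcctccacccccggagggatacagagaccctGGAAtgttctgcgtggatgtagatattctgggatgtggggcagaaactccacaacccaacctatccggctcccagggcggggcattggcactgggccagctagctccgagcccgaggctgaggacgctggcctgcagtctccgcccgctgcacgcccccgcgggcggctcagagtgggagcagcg

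The core was found 4 times for Ccl9, 4 times for Ccl3, and 3 and 2 times at the starts of Il1r1. So short a motif is common: on either strand it occurs in 96.0% of the 32851 start regions of this length in the table and in 63 of 68 belonging to 60 members (92.6%). The longer AGGAAG, searched on both strands and containing the core, is not in any of these 4 windows and is in 35.4% of all windows and in 27 of the 68 (39.7%). The genes and motifs were chosen after values were seen, and a match is a description of letters, not a binding site.

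The other chemokine ligands differed less evenly between arrays. Of the 13 ligands, 8 had a positive difference between Erg fl/fl MPPs and Erg +/+ HSCs (median log2 difference 0.177, from -1.32 to 2.26), 7 between Erg -/- and Erg fl/fl MPPs (median 0.004) and 7 between Erg +/- and Erg +/+ HSCs (median 0.007). Cxcl9 and Cxcl10, chemokines induced by interferon and named here after their values were seen, had 1 array far above the others. Cxcl9 had 5.36, 6.55 and 5.63 in Erg +/- HSCs, against 5.32, 6.80 and 8.85 in Erg +/+ HSCs, and Cxcl10 had 5.79, 5.53 and 5.45 against 6.07, 5.31 and 8.33. The array of Erg +/+ HSC replicate 3 was the highest for both. The mean of 7 interferon-induced genes was 6.73, 6.56 and 6.73 in Erg +/+ HSC replicates 1, 2 and 3. The part of interferon in the Cxcl9 and Cxcl10 values was not tested. Neither gene passed in any comparison. The probe sets of Ccl19 and those of Ccl25, also named after their values were seen, gave opposite signs between Erg fl/fl MPPs and Erg +/+ HSCs, with 0.14 for the probe set used and -1.48 for the other in Ccl19, and -0.49 and 1.08 in Ccl25, so those genes have no settled direction.

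Among the 7 chemokine receptors 0 were called. Cxcr2, a receptor of neutrophil-attracting chemokines, had 4.50, 4.84 and 4.45 in Erg -/- MPPs and 5.87, 5.50 and 4.63 in Erg fl/fl MPPs, overlapping groups with a log2 difference of -0.74 (unadjusted p = 0.0247, adjusted p = 0.998 by limma). Its relative Cxcr1 had 5.26, 5.21 and 6.33 in Erg +/- HSCs, against 7.29, 5.88 and 6.21 in Erg +/+ HSCs, a difference of -0.86 (adjusted p = 0.789). Cxcr1 was also 1.97-fold lower in Erg fl/fl MPPs than in Erg +/+ HSCs, with adjusted p = 0.163 by limma. Ccr3, the eotaxin receptor of eosinophils, had 5.58, 6.34 and 6.51 in Erg -/- MPPs, all above the 5.26, 5.31 and 5.41 of Erg fl/fl MPPs, and did not pass (log2 difference 0.82, adjusted p = 0.998). In Erg +/- HSCs it had 6.95, 4.78 and 4.66, 1 array far above the others, against 4.91, 4.79 and 4.51 in Erg +/+ HSCs. On that array the mean of 5 mast cell, basophil and eosinophil markers was 4.33, against 5.65 and 4.63 on Erg +/- HSC replicates 2 and 3. The mean of 5 macrophage markers was 7.36 there, against 6.18 and 6.32. The part of these cells in the Ccr3 values was not tested.

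**Figure D3:**
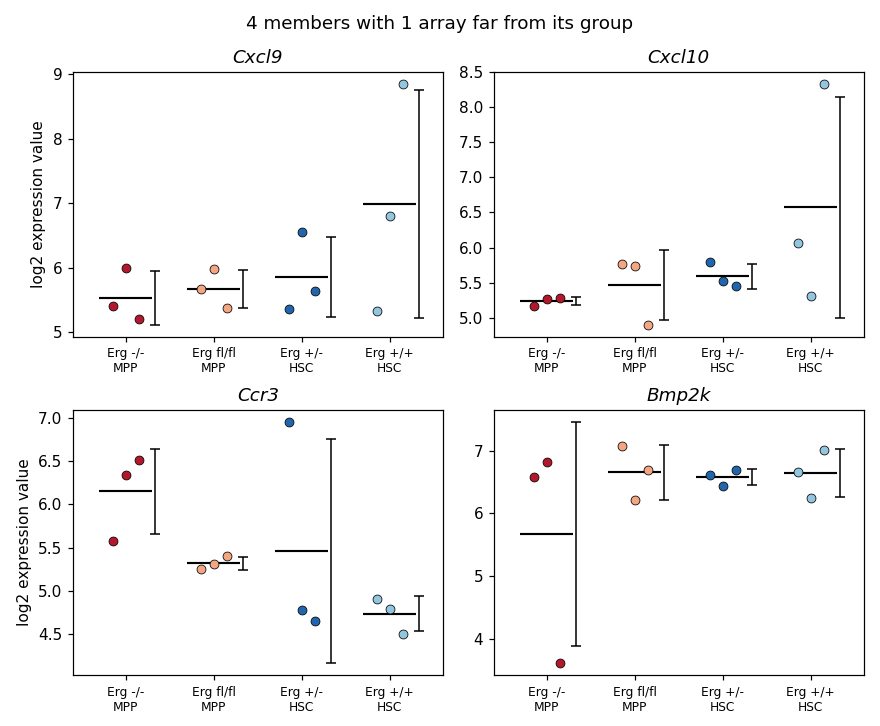
Log2 values of Cxcl9, Cxcl10, Ccr3 and Bmp2k by array (points), with group mean (line) and SD (bar, n = 3), for Erg -/- MPPs, Erg fl/fl MPPs, Erg +/- HSCs and Erg +/+ HSCs from left to right; vertical axes differ and do not start at 0. One array stands apart in each panel: 8.85 and 8.33 in Erg +/+ HSC replicate 3, 6.95 in Erg +/- HSC replicate 1 and 3.61 in Erg -/- MPP replicate 3.

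Of the 13 interleukins themselves, 6 had a mean below 4.69, the 25th percentile of all genes, and 0 were called. Il3, a growth factor for early progenitors, had 3.48, 2.98 and 4.03 in Erg -/- MPPs and 2.75, 2.82 and 2.82 in Erg fl/fl MPPs, groups that did not overlap (log2 difference 0.70, unadjusted p = 0.0211, adjusted p = 0.998 by limma). Il10, an anti-inflammatory cytokine, had 3.73, 3.57 and 4.12 against 3.23, 3.52 and 3.45, again without overlap (0.40, adjusted p = 0.998). Il23a, which encodes the p19 subunit of IL-23, had 4.76, 5.22 and 5.16 in Erg fl/fl MPPs and 4.62, 3.96 and 4.01 in Erg +/+ HSCs, a difference of 0.85 (SE 0.223, adjusted p = 0.0811 by limma). Of the 13, 12 had positive differences between Erg -/- MPPs and Erg +/- HSCs (median 0.293) and 10 between Erg fl/fl MPPs and Erg +/+ HSCs (median 0.279). The exception among the Erg-reduced cells was Il16, a secreted attractant of CD4+ cells, with 6.28, 6.41 and 6.45 in Erg -/- MPPs, below the 6.66, 6.86 and 6.58 of Erg +/- HSCs (-0.32, adjusted p = 0.446 by limma). The positive sign was common among dim genes in general. Among the 2496 genes below the 25th percentile, 88.1% and 80.8% were positive in these comparisons, with medians of 0.263 and 0.219.

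The receptor of the IL-1 pathway had the largest difference of the members between the MPP genotypes. Il1r1, the signalling receptor for IL-1, had 6.14, 5.94 and 5.19 in Erg -/- MPPs, 8.29, 7.76 and 7.34 in Erg fl/fl MPPs, 5.36, 6.38 and 7.06 in Erg +/- HSCs, and 6.45, 6.67 and 7.12 in Erg +/+ HSCs. The Erg -/- MPP arrays lay below all Erg fl/fl MPP arrays, and the HSC genotypes overlapped. Il1r1 was 4.11-fold lower in Erg -/- MPPs, at 5.76 ± 0.500 against 7.80 ± 0.478 in Erg fl/fl MPPs (SD, n = 3 each), a log2 difference of -2.04 (SE 0.400, unadjusted p = 0.000238) that did not pass over all genes (adjusted p = 0.152 by limma). With 1 array left out its adjusted p ran between 0.0492 and 0.648, and it passed without Erg +/- HSC replicate 1, an array outside the comparison that enters through the shared spread. The difference between Erg fl/fl MPPs and Erg +/+ HSCs was 1.05 (adjusted p = 0.161), and these comparisons share the Erg fl/fl arrays. The MPP difference minus the HSC difference was -1.56 (unadjusted p = 0.0167, adjusted p = 1.0 by limma).

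Marker lists of other cells moved in both directions between the MPP genotypes. Of 5 mast cell, basophil and eosinophil markers, 1 was called lower in Erg -/- MPPs, again Mcpt8 (log2 difference -3.54, adjusted p = 0.0029 by limma), and the list mean was 5.05 to 5.46 against 5.57 to 6.28 in Erg fl/fl MPPs. Of 6 B-lineage markers 2 were called lower, Igll1 and Vpreb1 of the surrogate light chain (-1.88 and -4.75), with a list mean of 5.05 to 5.4 against 6.5 to 7.0. Of these lists, 2 of the 5 and 1 of the 6 markers had positive differences. Of 5 markers associated with stem cells 1 was called lower, Ifitm1 (-1.66, adjusted p = 0.000442 by limma), and 2 were positive. The mean of that list was 6.3 to 6.51 against 6.85 to 6.87. Of 4 dendritic cell markers 0 were called and 1 was positive, with a list mean of 6.34 to 6.43 against 6.46 to 6.69. Macrophage and erythroid lists went the other way, with 0 markers called. All 5 macrophage markers had positive differences, with a list mean of 6.37 to 6.63 in Erg -/- MPPs against 5.87 to 6.25. So had all 11 erythroid markers, at 6.21 to 6.74 against 5.95 to 6.28. The part of any of these cells in the Il1r1 values was not tested. The co-receptor of Il1r1, Il1rap, named after its values were seen, also did not overlap, with 5.69, 5.61 and 5.54 in Erg -/- MPPs and 6.11, 5.86 and 6.17 in Erg fl/fl MPPs, a smaller difference of -0.43 (adjusted p = 0.998 by limma). Of the 4 adaptors and partners of the IL-1 pathway 0 were called, and Casp1, which encodes the protease that matures IL-1 beta, stood at -0.61 between the MPP genotypes (adjusted p = 0.998) and 0.89 between Erg fl/fl MPPs and Erg +/+ HSCs (adjusted p = 0.0983).

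The remaining interleukin receptors gave smaller values, and 0 of the 15 were called. Il3ra, the alpha chain of the IL-3 receptor, had 6.81, 7.17 and 7.35 in Erg -/- MPPs and 7.08, 6.88 and 7.38 in Erg fl/fl MPPs, and 7.24, 7.75 and 7.59 in Erg +/- HSCs against 7.33, 7.30 and 7.01 in Erg +/+ HSCs. Its differences were -0.01 in MPPs and 0.31 in HSCs, with overlapping groups in both. Il2ra, the alpha chain of the IL-2 receptor, had 3.06, 3.83 and 4.09 in Erg fl/fl MPPs and 2.73, 2.99 and 2.90 in Erg +/+ HSCs (0.78, adjusted p = 0.104 by limma). Il2rb, the chain shared by IL-2 and IL-15 receptors, had 5.10, 6.39 and 5.19 in Erg -/- MPPs, against 5.16, 4.66 and 4.85 in Erg +/- HSCs (0.67, adjusted p = 0.446). Erg -/- MPP replicate 2 was the array at 6.39, and the others of its group overlapped with Erg +/- HSCs.

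Of the TNF family, 4 ligands, 7 receptors and 3 proteins induced by TNF were measured, and 0 were called. The 7 leave out Tnfrsf22 and Tnfrsf26, which were grouped as antagonists and decoys and were not called either. Between the MPP genotypes Tnfrsf22 differed by 0.25 and Tnfrsf26 by -0.28, both without overlap (adjusted p = 0.998 by limma for each). Tnfsf9, a co-stimulatory ligand, had 4.34, 4.83 and 4.36 in Erg -/- MPPs, 5.06, 5.21 and 4.87 in Erg fl/fl MPPs, 5.78, 4.84 and 5.16 in Erg +/- HSCs, and 6.54, 5.26 and 6.87 in Erg +/+ HSCs. From low to high, its means stood in the order Erg -/- MPP, Erg fl/fl MPP, Erg +/- HSC and Erg +/+ HSC. Erg +/- HSCs overlapped with both neighbours in that order. The log2 difference was -0.54 in MPPs without overlap (adjusted p = 0.998 by limma), -0.96 in HSCs (adjusted p = 0.755) and -1.17 between Erg fl/fl MPPs and Erg +/+ HSCs (adjusted p = 0.11). Tnf itself, the inflammatory ligand that gives the family its name, had 5.42, 5.51 and 5.87 in Erg -/- MPPs and 5.24, 5.59 and 5.57 in Erg fl/fl MPPs, a difference of 0.13, and differed by 0.07 between Erg +/- and Erg +/+ HSCs.

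Tnfrsf12a, the receptor of TWEAK, had 6.46, 6.52 and 6.74 in Erg +/- HSCs, all above the 6.06, 6.32 and 5.77 of Erg +/+ HSCs, without passing (log2 difference 0.53, unadjusted p = 0.049, adjusted p = 0.789 by limma). It was 1.76-fold higher in Erg fl/fl MPPs than in Erg +/+ HSCs (adjusted p = 0.104). Tnfsf14, the ligand LIGHT, had 4.88, 4.71 and 5.33 in Erg -/- MPPs, below the 5.45, 5.34 and 5.50 of Erg fl/fl MPPs and below the 5.62, 5.34 and 6.12 of Erg +/- HSCs, and passed in neither comparison (adjusted p = 0.998 and 0.446 by limma). Tnfrsf18, the receptor GITR, was 1.58-fold lower in Erg -/- MPPs than in Erg +/- HSCs (adjusted p = 0.446). Of 19 genes of TNF and NF-kappaB signalling 0 were called in any of these comparisons, and the kinase gene Map3k7 had the smallest p in HSCs (-0.66, adjusted p = 0.67).

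TGF-beta and BMP signalling was represented by 6 ligands and 4 receptors, and 0 were called. Tgfbr2, the type II receptor through which TGF-beta signals, had 7.02, 6.67 and 6.55 in Erg +/- HSCs and 7.57, 7.39 and 7.02 in Erg +/+ HSCs. The highest Erg +/- array lay next to the lowest Erg +/+ array. The difference of -0.58 (SE 0.201, unadjusted p = 0.0135) did not pass (adjusted p = 0.74 by limma). Between the same genotypes, 1 of 7 endothelial and stromal markers was called lower, the matrix gene Sparc (-2.08, adjusted p = 0.0401), with a list mean of 5.37 to 5.49 in Erg +/- HSCs and 6.02 to 6.18 in Erg +/+ HSCs. Of 11 erythroid markers 0 were called, with a list mean of 6.44 to 6.56 in Erg +/- HSCs and 5.64 to 6.02 in Erg +/+ HSCs. The part of either in the HSC values was not tested. Tgfbr2 had 6.24, 6.61 and 6.75 in Erg -/- MPPs, overlapping the 6.66, 6.64 and 6.84 of Erg fl/fl MPPs. Erg fl/fl MPPs lay below Erg +/+ HSCs by a difference of -0.61 without overlap (adjusted p = 0.126 by limma). Bmpr1a, a type I BMP receptor with a dim probe set, had 3.64, 3.49 and 3.39 in Erg -/- MPPs, against 2.94, 2.97 and 3.00 in Erg fl/fl MPPs, and 3.29, 4.39 and 4.04 in Erg +/- HSCs, against 2.82, 3.46 and 3.57 in Erg +/+ HSCs. Its differences were 0.54 in MPPs and 0.62 in HSCs (adjusted p = 0.998 and 0.789 by limma).

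Of 20 SMAD pathway genes, 1 was called, in both comparisons of MPPs with HSCs. Eng, the TGF-beta co-receptor endoglin that marks HSCs, was 14.3-fold lower in Erg -/- MPPs than in Erg +/- HSCs (adjusted p = 7.61e-08 by limma) and 12.2-fold lower in Erg fl/fl MPPs than in Erg +/+ HSCs (adjusted p = 2.13e-07). Smad2, which encodes a TGF-beta signal transducer, stood at -0.80 between the MPP genotypes (adjusted p = 0.723) and 0.99 between the controls (adjusted p = 0.063). Among the TGF-beta and BMP ligands the differences in HSCs ran from -0.11 to 0.25 and in MPPs from -0.17 to 0.38. Bmp4 had the widest spread of them within a group, at 4.94, 6.17 and 7.20 in Erg +/- HSCs.

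Osm, which encodes oncostatin M, a cytokine of the IL-6 family, had 4.94, 6.00 and 5.62 in Erg +/- HSCs and 4.65, 4.37 and 5.48 in Erg +/+ HSCs, overlapping groups (log2 difference 0.68, unadjusted p = 0.0448, adjusted p = 0.789 by limma). Its difference in MPPs was 0.03. The receptors Lifr and Osmr, both below the 25th percentile, differed by 0.10 and 0.23 in MPPs and by -0.13 and -0.09 in HSCs. Among the 5 SOCS inhibitors, Socs1 and Socs3 differed by 0.26 and -0.03 in MPPs and by 0.09 and -0.07 in HSCs. Socs6 had 5.29, 7.23 and 5.24 in Erg +/- HSCs and 7.48, 6.30 and 7.35 in Erg +/+ HSCs (-1.13, adjusted p = 0.789 by limma). Erg fl/fl MPPs, at 5.68, 4.51 and 5.09, lay below all 3 of those Erg +/+ arrays (-1.95, adjusted p = 0.0811). A second probe set of Socs6 differed by 0.0 between Erg fl/fl MPPs and Erg +/+ HSCs. Its means of 2.16 and 2.16 lay far below the 25th percentile of all genes (4.69). At so dim a level it cannot decide the direction, so the Socs6 difference rests on 1 probe set. Of 8 further genes of cytokine signal transduction, which were Stat5b, the STAT inhibitor genes Pias2 and Pias4, and the phosphatase and adaptor genes Ptpn11, Ptprc, Inpp5d, Stam2 and Grb2, 0 were called. No JAK gene was among them.

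The pathway genes outside the family that were called were 3. Besides Eng, Flt3, a cytokine receptor kinase of early lymphoid progenitors, rose 21.4-fold in Erg -/- MPPs relative to Erg +/- HSCs (adjusted p = 5.42e-07 by limma) and 5.94-fold in Erg fl/fl MPPs relative to Erg +/+ HSCs (adjusted p = 0.000242). Xcl1, a lymphocyte chemokine outside the CC and CXC stems, rose 3.87-fold in Erg fl/fl MPPs relative to Erg +/+ HSCs (adjusted p = 0.0366), with 6.12, 8.14 and 6.92 against 5.10, 5.14 and 5.06. It had 6.40, 6.23 and 5.73 in Erg -/- MPPs, a difference of -0.94 from Erg fl/fl MPPs that did not pass. In both genotype comparisons 0 genes of the 6 signalling lists were called. The closest was Flt3 in HSCs, with 5.45, 4.69 and 4.57 for Erg +/- against 6.38, 5.98 and 6.34 for Erg +/+ (-1.33, adjusted p = 0.119 by limma).

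**Figure D4:**
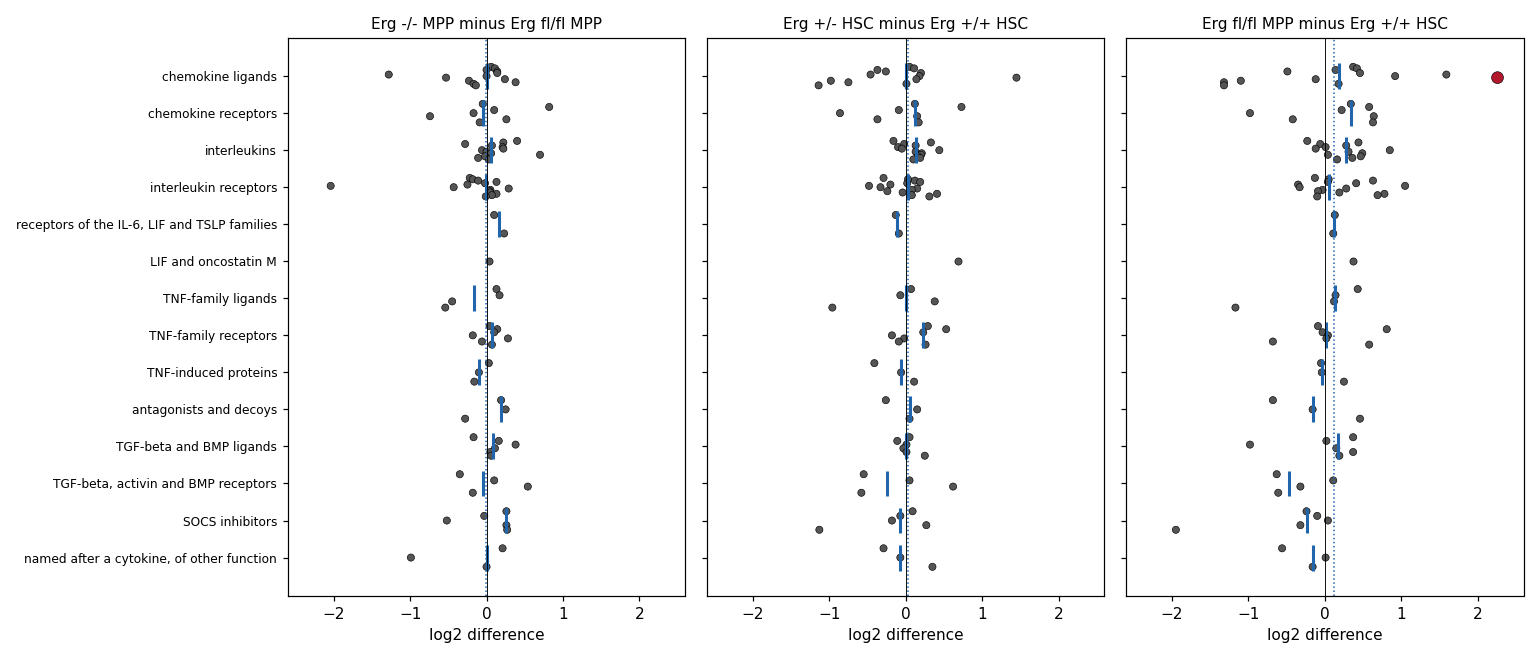
Log2 differences of the 86 members by role (points) for Erg -/- minus Erg fl/fl MPPs, Erg +/- minus Erg +/+ HSCs, and Erg fl/fl MPPs minus Erg +/+ HSCs; blue bars are role medians, the dotted line is the median of all genes, and the large red point passed the adjusted threshold. The red point is Ccl9 at 2.26, and the lowest point of the MPP panel is Il1r1 at -2.04.

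Over all members the genotype differences were mostly small and centred near 0. In Erg -/- MPPs relative to Erg fl/fl MPPs 49 of 86 were positive (49.4% of all genes). Their median was 0.046 (-0.004 for all genes) and their median size 0.159 (0.153 for all genes). In Erg +/- HSCs relative to Erg +/+ HSCs 48 were positive (53.8% of all genes), with a median of 0.038 (0.024) and a median size of 0.183 (0.164). A difference of more than 1 log2 unit was seen in 2 members in MPPs (2.33%), against 0.871% of all genes. In HSCs it was seen in 3 members (3.49%), against 1.21% of all genes. At an unadjusted p under 0.05 in MPPs, 2 members were higher (1.21% of all genes) and 3 lower (3.58%). The same count in HSCs was 4 higher (2.73% of all genes) and 5 lower (3.59%). For the difference of the effects it was 2 higher (1.43%) and 2 lower (2.44%). The arrays of the MPP genotypes did not overlap for 6 members that were higher (4.36% of all genes) and 7 lower (6.1%), and those of the HSC genotypes for 4 higher (6.06%) and 2 lower (4.38%). No member was apart in both genotype comparisons. Of all genes, 0.361% were higher in both and 0.421% lower in both. A further 0.22% were higher in HSCs and lower in MPPs, and 0.0901% the reverse. The members' count of 0 of 86 lies near these shares.

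Between the populations more members differed, as did more of all genes. Between Erg fl/fl MPPs and Erg +/+ HSCs, 14 members were higher (14.4% of all genes) and 9 lower (7.91%) at an unadjusted p under 0.05, and 18 higher (18.5%) and 8 lower (8.54%) did not overlap. The median difference was 0.077 for the members and 0.122 for all genes, a shift of all genes that centring each array on its median brought to 0.024. A difference of more than 1 log2 unit was seen in 8 members (9.3%), against 4.08% of all genes. Between Erg -/- MPPs and Erg +/- HSCs, 1 member was higher (1.79%) and 2 lower (2.05%) at an unadjusted p under 0.05, and 10 higher (14.7%) and 7 lower (5.47%) did not overlap. The median there was 0.11 (0.101 for all genes), and 0 members lay beyond 1 log2 unit, near the 1.13% of all genes. Ccl3, Il17rd, Il2ra and Il34 were higher in MPPs without overlap in both population comparisons, which share no arrays (4.25% of all genes), and Tnfsf9 was lower in both (1.24%).

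**Figure D5:**
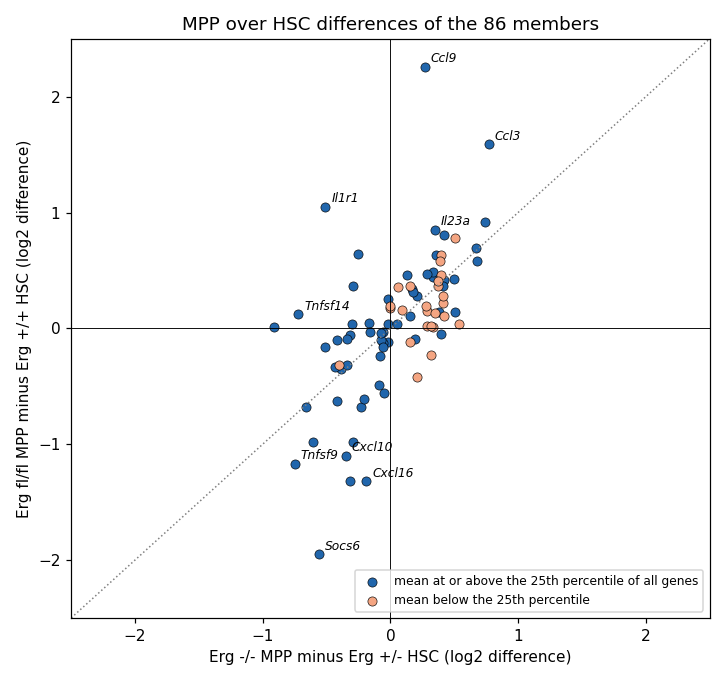
Log2 difference of each of the 86 members between Erg -/- MPPs and Erg +/- HSCs (horizontal) and between Erg fl/fl MPPs and Erg +/+ HSCs (vertical), coloured by whether the gene's mean lies below the 25th percentile of all genes; the dotted diagonal marks equal differences. Ccl9 stands at 0.27 and 2.26, Ccl3 at 0.77 and 1.59, and dim members lie mostly above 0 on both axes.

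Brightness separated the members in these population comparisons. Of the 25 members below the 25th percentile, 23 had positive differences between Erg -/- MPPs and Erg +/- HSCs (median 0.324) and 21 between Erg fl/fl MPPs and Erg +/+ HSCs (median 0.177). Of the 61 brighter members, 24 were positive in the comparison of the Erg-reduced cells (median -0.064) and 31 in that of the controls (median 0.014), against 50.5% and 56.2% of all brighter genes. Between the MPP genotypes, 20 of the 25 dim members were positive (median 0.113), against 63.7% of all dim genes. Of the 61 brighter members 29 were positive there (median -0.004), against 44.6% of all brighter genes. Dim members without overlap between the MPP genotypes were Il3, Il10 and Bmpr1a, all higher in Erg -/- MPPs. Among all 2496 dim genes, 137 were apart higher there and 30 lower. Positive differences of dim genes were thus common in and outside the family.

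Spread between arrays of a group was close to that of genes in general, with a median pooled SD of 0.295 for the members and 0.277 for all genes. It reached 0.974 for Cxcl9 and 0.945 for Bmp2k, whose values in Erg -/- MPPs were 6.58, 6.83 and 3.61. Without Erg -/- MPP replicate 3 its difference from Erg fl/fl MPPs was 0.04, against -0.99 with it. A range above 1.5 log2 units within a group was seen for 14 members in 15 groups. Ccl5, a chemokine of T cells and platelets named after its values were seen, was the member with 2 such groups, at 7.99, 6.28 and 6.25 in Erg +/- HSCs and 5.89, 7.82 and 6.25 in Erg +/+ HSCs, while its MPP arrays lay between 7.27 and 7.85.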

How the data were processed

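RNA of 12 samples was measured on Affymetrix gene arrays. Deposited values span 0.94 to 13.38, a log2 scale, and RMA and affy are named, without versions, in the submitters' processing notes. Arrays carry no read depth, and 3 arrays per group limit the precision. Of 18719 probe sets, the platform annotation gives 10657 a single gene symbol, 523 several, and lists no gene for 7539. Each gene was represented by its probe set with the highest mean over 12 arrays, which left 9984 genes, 364 of them with over 1 probe set (4 members). All 86 members matched the RefSeq table of GRCm38.p6 by gene ID, and start regions came from RefSeq.

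Groups follow the genotype labels. A limma model (limma 3.58.1, R 4.3.3) with 4 group means over 12 arrays gave 5 comparisons, with 8 residual and 4.35 prior degrees of freedom, two-sided p-values adjusted by Benjamini-Hochberg over all genes (threshold 0.05), moderated standard errors and no filter on dim genes. It was tested on simulated data. Arrays are called apart, or without overlap, where all values of one group lie beyond all of the other. Named members are those called, the 5 smallest p per comparison and direction, the 2 smallest per role in the genotype comparisons, and a fixed list of known genes. The other members named by symbol with a value were chosen after their values were seen. The members and lists were chosen with earlier results of these data known. Alternatives were a replicate block, a filter at the 25th percentile, averaging the probe sets of each gene, a second quantile normalisation, arrays centred on their median, limma's trend and robust options, a fit to the compared arrays alone, adjustment over every deposited probe set, and leaving out each array. The labels do not say whether replicate numbers pair the samples, and the main model has no block. Deviations of same-numbered arrays correlated at -0.085 to 0.104, so little was shared between them. That cannot exclude a pairing by litter or day. Background correction and slide were not varied, as the deposited value table was used.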

Additional observations from a re-analysis of the deposited data

How the results depend on the processing

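The count of called members was 0 under every alternative for HSC genotype, for the difference of the effects and for the Erg-reduced populations. In MPPs it was 0 except without Erg +/- HSC replicate 1, where it was 1 (Il1r1, adjusted p = 0.0492 by limma). Between Erg fl/fl MPPs and Erg +/+ HSCs it was 2 with the filter at the 25th percentile, quantile normalisation, median centring or the intensity trend, which added Cxcl16, and 0 when adjusted over all deposited probe sets. With 1 array left out it ran from 0 to 3. Members beside Ccl9 passed there in single settings, Cxcl16 and Socs6 without Erg +/- HSC replicate 2 (adjusted p = 0.0292 and 0.0277), Cxcl16 and Tnfsf9 without Erg +/+ HSC replicate 2 (0.0157 and 0.0158), Il23a without Erg +/+ HSC replicate 1 (0.0461) and Il2ra without Erg fl/fl MPP replicate 1 (0.0206). The cause was not tested. The median difference of the members moved to -0.037 in MPPs without Erg fl/fl MPP replicate 1, from -0.037 to 0.062 over all arrays left out, and to -0.064 between Erg -/- MPPs and Erg +/- HSCs with the filter, which removes the dim members. Signs turned where differences were small: with 1 array left out, log2 differences in MPPs ran from -0.38 to 0.11 for Bmp10, -1.57 to 0.04 for Bmp2k, -0.2 to 0.11 for Tnfaip3 and -0.09 to 0.18 for Osm, and in HSCs from -0.26 to 0.01 for Bmp15 and -0.08 to 0.33 for Tnfaip8. Over all genes, calls between the controls numbered 128, against 38 when adjusted over all probe sets, 47 and 48 without Erg fl/fl MPP replicate 2 or 3, and 61 with only the arrays compared. With the replicate number as a block 0 members were called in MPPs, HSCs and the Erg-reduced populations and 1 between the controls (Ccl9, adjusted p = 0.0469 by limma), and 139 genes between the controls, so the block changed no call of a member. Counts of called signalling genes stayed within 2 to 4 between the controls. The precision of all values is limited by 3 arrays per group and by the dimness of 25 of 86 members.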
